A study of Mus musculus with 6 samples.

Results

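Multiple myeloma is a cancer of plasma cells, and a small set of genes is altered in it again and again. The 9 genes described here are the mouse orthologs of such drivers, taken as a fixed list by symbol: *Nras*, *Braf*, *Traf3*, *Cyld*, *Maf*, *Myc*, *Max*, *Ccnd2* and *Ccnd3*. All 9 were found among the 54446 genes of the RNA-seq data, and 8 of them (all but *Maf*) passed the minimum mean of 10 normalized counts set for the test, as did 12322 genes in all. The human gene TENT5C, a cytoplasmic poly(A) polymerase that extends the tails of mRNAs, is itself lost in myeloma. The mRNA levels of the other drivers were therefore compared between *Tent5c* KO and WT cells.

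The cells were naive B cells purified from mouse spleen by negative selection and kept for 7 days in culture with LPS (20 µg/ml) and the cytokine IL-4 (20 ng/ml), a mixture that drives B cells to proliferate, change their Ig class and become antibody-secreting cells. The KO group came from mice lacking *Tent5c* in all tissues, a line made by CRISPR genome editing, and the WT group from their littermates, both on a mixed C57BL/6J X CBA background and aged 12 to 15 weeks. There were 3 libraries of each genotype, made from rRNA-depleted total RNA, and each replicate number was 1 KO and 1 WT littermate processed as a batch (pairs 1, 2 and 3). The deposited values are fragment counts per gene divided by the size factor of the library, called normalized counts. The libraries labelled KO held 6650817, 6564640 and 6793520 fragments on genes in pairs 1, 2 and 3, and those labelled WT held 6669652, 6082854 and 5393558.

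The labels were first checked against the data. For *Tent5c*, the KO libraries of pairs 1, 2 and 3 gave 1993, 993 and 1170.4 normalized counts, and the WT libraries 1255, 767 and 1584. Its level was thus no lower in the KO group and does not tell the genotypes apart, for which reason the groups go by their labels throughout. *Xist* was at 11636 and 11610 normalized counts in both libraries of pair 2 and at most 6.61 in the other 4, while *Ddx3y*, a gene of the Y chromosome, was at 0 in pair 2 and between 1285 and 1477 in pairs 1 and 3. The sex of the cells therefore differed between pairs and not within them. The cell identity was also checked: all 10 of 10 B cell markers passed the minimum, led by *Cd74* with a mean of 24234 normalized counts. Of 8 plasmablast markers, 7 passed, led by *Xbp1* with a mean of 4871.

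In myeloma, RAS and RAF mutations switch on the MAPK cascade, which carries growth signals from receptors to the nucleus. TRAF3 and CYLD are brakes on NF-kB, the former by marking the kinase NIK for destruction and the latter by removing ubiquitin chains from signalling complexes, and both are lost in tumours. Chromosome translocations place *MAF*, *MYC* or a D-type cyclin next to an Ig enhancer. MYC binds DNA together with MAX at a short palindrome, the E-box CACGTG, and D-type cyclins activate CDK4 and CDK6, which release E2F factors from RB to start DNA replication.

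Because MYC and MAX are members and their site is short and defined, the promoters of the members were searched for CACGTG, which reads the same on both strands. The window ran from 250 bases before to 50 bases after each RefSeq transcription start (GRCm38.p6), and 6 of the 9 genes had an entry, all but *Maf*, *Myc* and *Ccnd2*. The motif was found in 2 of the 6, *Nras* and *Max* itself. Of all 32851 promoter entries, 2349 (7.15%) held it. That share counts entries, of which a gene can have several, and so is not matched to the counts of genes. Among the 20 genes listed below as MYC targets, 17 had a promoter entry and 6 of these genes held the motif. The stretches around it are shown because they are the members' only matches. They lie at chr3:103058230-103058284 on the plus strand for *Nras* and at chr12:76962246-76962291 on the minus strand for *Max*, with the E-box in capitals.
Nras: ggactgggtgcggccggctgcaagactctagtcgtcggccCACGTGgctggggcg
Max: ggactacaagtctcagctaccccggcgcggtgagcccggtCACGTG
The E-box of *Nras* began 15 bases before the RefSeq start of transcription, and that of *Max* began 3 bases before it and so spanned that start. In the Gencode positions given below, *Max* starts at 76962201, so that its E-box lies wholly upstream of the start. A match of letters is a description of the sequence and not evidence of binding.

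The limma test was made on log2(normalized count + 1), the pair being a block in the model. Over all 12322 genes, 0 passed a Benjamini-Hochberg adjusted *p*-value of 0.05 (0% called), and the 8 members were among those that did not pass. At an unadjusted *p*-value under 0.05, 206 genes (1.67%) were higher and 373 (3.03%) lower in libraries labelled KO. On recovered fragment counts, edgeR (quasi-likelihood) also called 0 genes, with 200 higher and 368 lower unadjusted, and DESeq2 called 1 higher and 22 lower, none of them a member. With 3 pairs, an exact two-sided sign-flip test of the pair ratios cannot give a *p*-value below 0.25. In bulk RNA, fewer cells that express a gene and less of its mRNA per cell cannot be told apart.

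Counted by direction, 3 of the 8 members (*Braf*, *Traf3* and *Ccnd3*) were higher in the library labelled KO in all 3 pairs, where 1442 genes (11.7%) were so. With the deposited scaling, only *Cyld* was lower in all 3 pairs, where 1616 genes (13.1%) were so. The shares of 11.7% and 13.1% are also the background of the counts by direction in the gene lists below. Every KO library lay above every WT library for 1 member, *Braf*, as for 418 genes (3.39%), and below for 0 members, as against 424 genes (3.44%). The median log2 fold change of the 8 members was 0.06, beside 0.00067 over all genes tested. *Braf* was also the 1 member with an unadjusted *p*-value under 0.05. The plot of every library shows these levels.

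**Figure D1:**
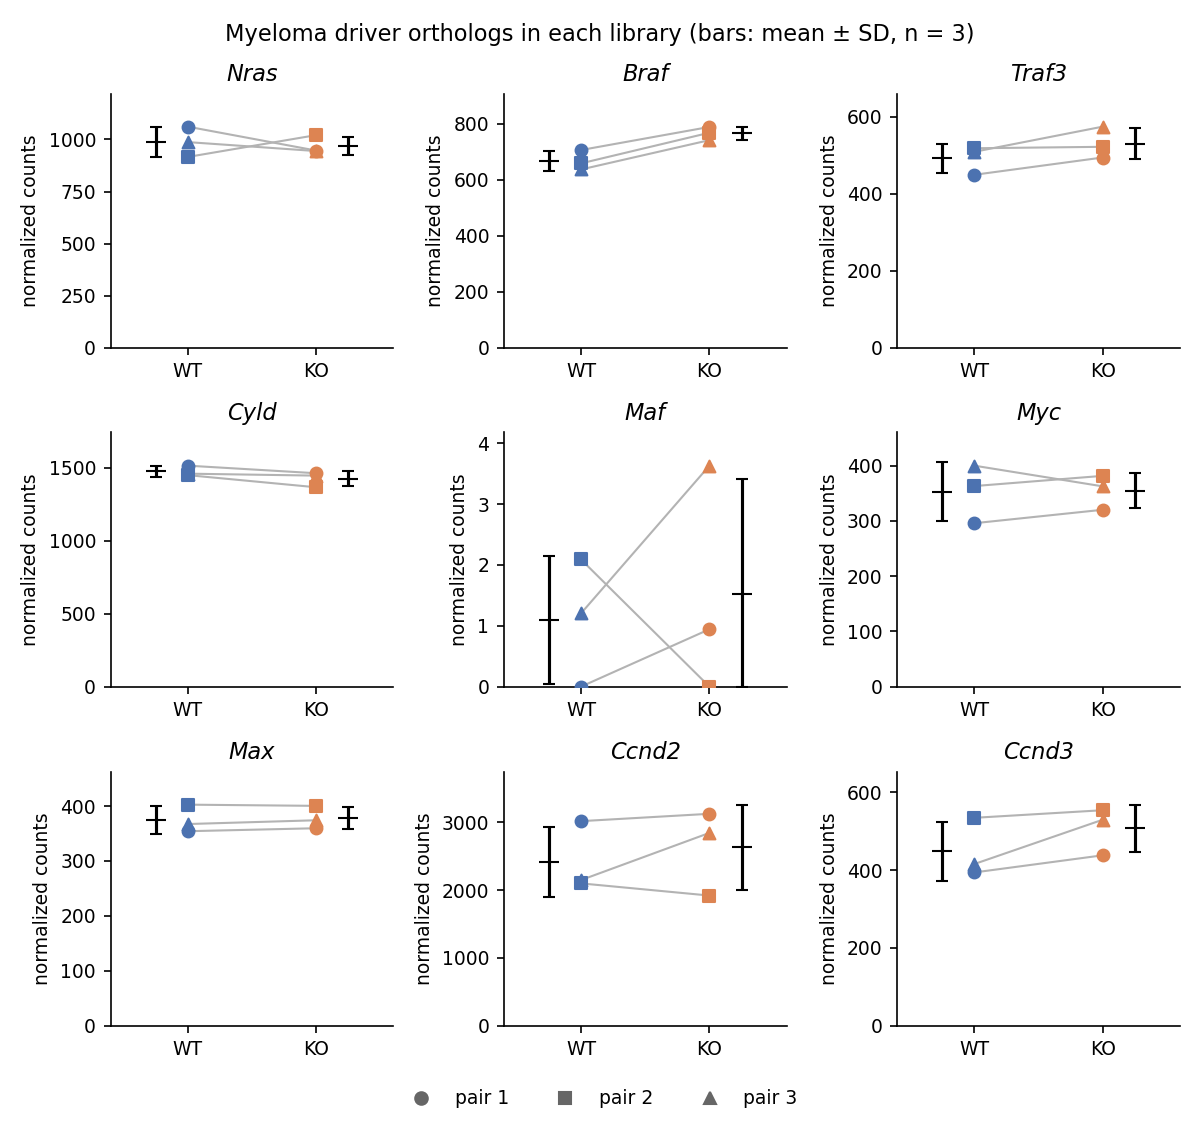
Normalized counts (vertical axes, from 0) of the 9 driver orthologs in the 3 libraries labelled WT and the 3 labelled KO; lines join the littermates of a pair, symbols mark the pair, and bars give the group mean ± SD (n = 3). Only for *Braf* do all KO libraries, from 742 to 789, lie above all WT libraries, from 637 to 706.

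*Nras*, a RAS GTPase that passes signals from receptors to RAF kinases, lies on chromosome 3 of GRCm38 from 103058285 to 103067914 on the plus strand. It had 947, 1021 and 944 normalized counts in libraries labelled KO (pairs 1 to 3), and 1061, 916 and 987 in libraries labelled WT. The groups overlapped, and the highest library of all was a WT one. The log2 ratios of KO to WT were −0.17, 0.16 and −0.06 in the 3 pairs, for a log2 fold change of −0.02 (standard error 0.08, 95% interval −0.22 to 0.17, adjusted *p* = 0.989 in limma). Without replicate 1 it was 0.046.

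*Braf*, the kinase directly below RAS, lies on chromosome 6 from 39603237 to 39725463 on the minus strand. Its levels were 789.0, 768 and 742 normalized counts in libraries labelled KO and 706, 659 and 637 in libraries labelled WT. The groups did not overlap. The littermates differed by 1.12-fold, 1.17-fold and 1.16-fold in pairs 1, 2 and 3 (exact *p* = 0.25), and the 95% intervals from counting error alone ran from 0.02 to 0.30, from 0.07 to 0.37 and from 0.06 to 0.38 on the log2 scale. The log2 fold change was 0.20 (standard error 0.06, 95% interval 0.05 to 0.35), with an unadjusted *p* = 0.0185 and an adjusted *p* = 0.970 in limma. The unadjusted *p* was 0.0163 in edgeR and 0.119 in DESeq2. A pseudogene, *Fth-ps2*, overlaps *Braf* on the same strand.

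Of the paralogs, *Hras* had a log2 fold change of −0.03 (unadjusted *p* = 0.827 in limma), with overlapping groups. *Araf*, another RAF kinase, had one of 0.03 (unadjusted *p* = 0.710), again with overlapping groups.

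Along the whole cascade, 21 of 22 genes listed beside the members were tested, with a median log2 fold change of −0.01. At an unadjusted *p*-value under 0.05, 0 were higher and 1 was lower, and 1 was higher and 4 lower in all 3 pairs. The gene that was lower was *Shc1*, an adaptor that links receptors to RAS, with 379, 381 and 410 normalized counts in libraries labelled KO and 453, 419 and 514 in libraries labelled WT. The groups of *Shc1* did not overlap, at a log2 fold change of −0.24 (standard error 0.08, unadjusted *p* = 0.0192, adjusted *p* = 0.970). Its unadjusted *p* was 0.0222 in edgeR and 0.120 in DESeq2, and 0.0300 to 0.0851 in limma with a replicate left out. Next by *p*-value was *Rasgrp3*, an exchange factor that loads RAS with GTP in B cells, at −0.18 (unadjusted *p* = 0.0723).

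Of 15 listed genes that MAPK signalling switches on, 10 could be tested. Some of them lay near the minimum, with means down to 10.1 normalized counts. The median log2 fold change of the 10 was 0.22, with 9 positive and 1 negative, where 6187 of all 12322 genes tested were positive. Of the 9, 0 had an unadjusted *p*-value under 0.05 in limma. *Dusp6*, a phosphatase that switches ERK off and is itself induced by it, went the other way with 105, 123 and 81 normalized counts in libraries labelled KO and 148, 124 and 226 in libraries labelled WT. The KO libraries lay below the WT libraries, but in pair 2 the 2 values were nearly the same. Its log2 fold change was −0.66 (standard error 0.26, unadjusted *p* = 0.0419, adjusted *p* = 0.970), and it was −0.26 without replicate 3, the pair with a log2 ratio of −1.47. *Dusp4*, a related phosphatase, was at 0.23 (unadjusted *p* = 0.110), and at 0.12 without replicate 3.

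*Traf3* lies on chromosome 12 from 111166370 to 111267153 on the plus strand. It had 495, 522 and 575 normalized counts in libraries labelled KO and 450, 519 and 509 in libraries labelled WT. The KO library was the higher one in each pair, by as little as 0.01 on the log2 scale in pair 2 and by 0.14 and 0.17 in pairs 1 and 3, and the groups overlapped. This made a log2 fold change of 0.11 (standard error 0.07, 95% interval −0.07 to 0.28, adjusted *p* = 0.970).

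*Cyld* lies on chromosome 8 from 88697028 to 88751945 on the plus strand and had the smallest spread of levels, relative to its mean, over the 6 libraries among the members tested. Its levels were 1461, 1365 and 1445 normalized counts in libraries labelled KO and 1513, 1448 and 1458 in libraries labelled WT. The log2 ratios were −0.05, −0.09 and −0.01, so that the KO library was the lower one in each pair with this scaling. In pair 3 the sign turned with TMM scaling and with quantile normalization, choices added after the data were seen. Over the pairs, the log2 fold change was −0.05 (standard error 0.06, 95% interval −0.19 to 0.09, adjusted *p* = 0.970), and it was −0.032 without replicate 2.

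TRAF3 acts in a complex with TRAF2, and TRAF5 is a close relative. Levels of these genes were set side by side per kilobase of exon, so that genes of unequal length can be compared. The share of *Traf3* in the summed level per kilobase of *Traf2*, *Traf3* and *Traf5* was 46.0%, 48.4% and 51.7% in libraries labelled KO and 43.1%, 43.9% and 44.7% in libraries labelled WT. The groups did not overlap, with means of 48.7% ± 2.85 and 43.9% ± 0.81 (SD, n = 3) and a difference of 4.83 ± 2.04 percentage points in 3 of 3 pairs (exact *p* = 0.25). *Traf2* had 335.0, 330 (pair 2) and 317 normalized counts in libraries labelled KO and 345, 377 and 378 in libraries labelled WT, all KO below all WT, and a log2 fold change of −0.16 (unadjusted *p* = 0.0942). *Traf5*, the least abundant of them, had a log2 fold change of −0.21 (unadjusted *p* = 0.293), from log2 ratios of −0.00092, −0.55 and −0.084 in the 3 pairs, and it was −0.042 without replicate 2.

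All 25 other genes listed for the NF-kB pathway were tested, with a median log2 fold change of 0.03. Of these, 5 were higher and 5 lower in all 3 pairs, and 1 was higher and 0 lower at an unadjusted *p*-value under 0.05. The latter was *Tab2*, which recruits the kinase TAK1 to ubiquitin chains, with 670.1, 639.6 and 626 normalized counts in libraries labelled KO and 616, 572 and 519 in libraries labelled WT. Its groups did not overlap, at a log2 fold change of 0.18 (unadjusted *p* = 0.0357, adjusted *p* = 0.970).

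The 12 genes that NF-kB induces were all tested and had a median log2 fold change of −0.01. *Nfkbia*, which encodes the inhibitor IkBa and is a target of NF-kB in turn, had 1948, 1911 and 1829.6 normalized counts in libraries labelled KO and 1729, 1764 and 1406 in libraries labelled WT. It was the only NF-kB target of the list with an unadjusted *p*-value under 0.05 (log2 fold change 0.22, standard error 0.07, unadjusted *p* = 0.0193, adjusted *p* = 0.970), and it was at 0.14 without replicate 3 (unadjusted *p* = 0.0675). *Nfkbid*, another inhibitor of the family, was at −0.32 (unadjusted *p* = 0.0913), and at −0.20 without replicate 1.

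**Figure D2:**
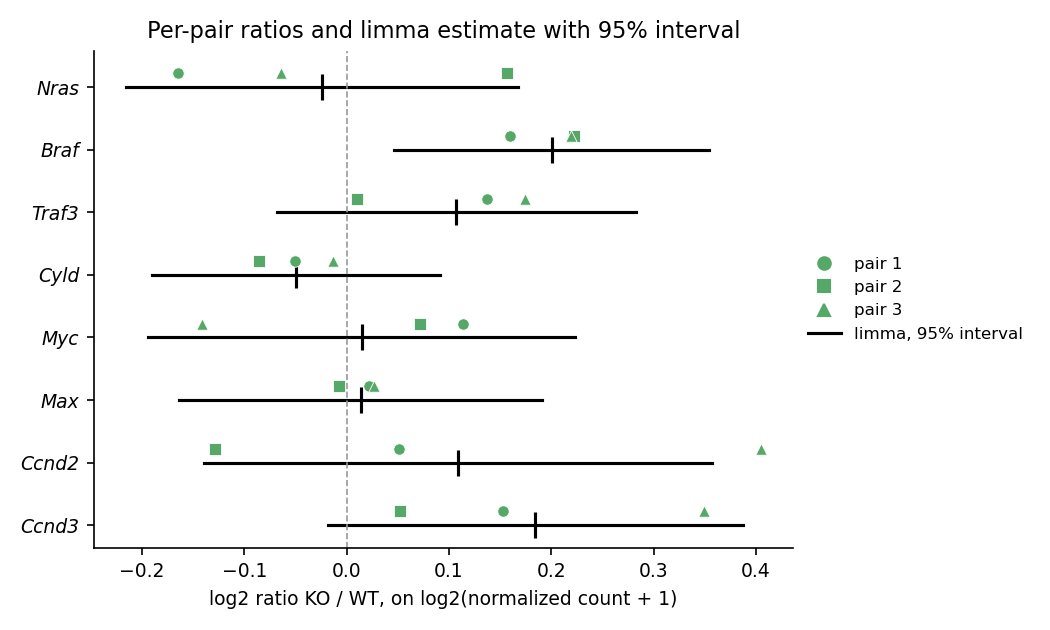
Log2 ratios of KO to WT on the log2(normalized count + 1) scale (horizontal axis) for the 8 members tested; points are the 3 pairs, vertical ticks the limma estimate and horizontal lines its 95% interval. Only the interval of *Braf*, from 0.05 to 0.35, lies wholly on one side of 0, and the pairs of *Ccnd2* are the furthest apart, from −0.13 to 0.40.

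*Maf*, a large MAF transcription factor, lies on chromosome 8 from 115682942 to 115707794 on the minus strand and was hardly detected. The libraries labelled KO held 1, 0 and 4 of its fragments and those labelled WT 0, 2 and 1, which makes 5 and 3 in all. A library with 0 fragments is compatible with up to 3, which is 2.72 to 3.61 normalized counts across the libraries (counting error only). *Maf* was below the minimum of the limma test, and DESeq2 gave it an unadjusted *p* of 0.855. So few fragments do not tell whether the groups differed. Of its relatives, *Mafa* had 15 and 9 fragments over the KO and WT libraries, and *Nrl* was listed at 0. The small MAF proteins and the BACH factors that pair with them were expressed, and 5 of the 8 listed genes of the family were tested, with 0 below an unadjusted *p* of 0.05. *Bach1* had a log2 fold change of −0.11 (unadjusted *p* = 0.251). *Bach2*, a repressor of plasma cell differentiation, was at 0.32 (unadjusted *p* = 0.264), from ratios of 0.32, −0.43 and 1.07 in pairs 1, 2 and 3.

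Genes known as targets of MAF in myeloma gave no pattern, as 3 of 4 were tested and 0 of them went the same way in all pairs. One of these is the member *Ccnd2*. *Itgb7*, an integrin that holds myeloma cells to stroma, had ratios of 0.54, 0.09 and −1.15 and a log2 fold change of −0.17 (unadjusted *p* = 0.605), which was 0.31 without replicate 3.

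*Myc* lies on chromosome 15 from 61985391 to 61990374 on the plus strand. It had 319.9, 381 and 362 normalized counts in libraries labelled KO and 296, 363 and 399.7 in libraries labelled WT. The spread between pairs was wider than the difference between littermates, and the direction was not the same in all: the log2 ratios were 0.11, 0.07 and −0.14. In the fit, the log2 fold change was 0.01 (standard error 0.09, 95% interval −0.19 to 0.22, adjusted *p* = 0.992). It was −0.035 without replicate 1 and −0.014 without replicate 2. *Myc* made up 99.2% of the summed level per kilobase of its family, with *Mycl* between 2.41 and 8.50 normalized counts and *Mycn* listed at 0 in all 6 libraries.

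*Max*, the partner of MYC, lies on chromosome 12 from 76937269 to 76962201 on the minus strand, where an uncharacterized gene, *Gm47218*, overlaps it on the same strand. Its levels were 359.6, 400.3 and 374 normalized counts in libraries labelled KO and 354, 403 and 367 in libraries labelled WT. The littermates were almost level, with log2 ratios of 0.02, −0.01 and 0.03, and the pairs differed more than the groups did. In limma, the log2 fold change was 0.01 (standard error 0.07, 95% interval −0.16 to 0.19, adjusted *p* = 0.992).

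In the network of factors that share MAX or its relative MLX, 10 of 13 genes were tested, with a median log2 fold change of 0.01. There were 2 genes higher and 3 lower in all 3 pairs. *Mlxip*, which pairs with MLX and responds to glucose, had the smallest *p*-value of the 11 gene lists, with 352.0, 304 and 349 normalized counts in libraries labelled KO and 259.7, 275 and 266 in libraries labelled WT. All KO libraries were above all WT libraries, with 0.32 as log2 fold change (standard error 0.09, unadjusted *p* = 0.0120, adjusted *p* = 0.913 in limma). The unadjusted *p* of *Mlxip* was 0.0124 in edgeR and 0.0718 in DESeq2, and 0.0119 to 0.0763 in limma with a replicate left out. *Mxd3*, which competes with MYC for MAX, was at 0.36 with overlapping groups (unadjusted *p* = 0.138), and at 0.18 without replicate 3.

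Targets of MYC, mostly genes of ribosome production and nucleotide synthesis, were abundant, and all 20 listed were tested. Their log2 fold changes ran from −0.12 to 0.13 with a median of 0.01, and 0 had an unadjusted *p*-value under 0.05. Of the 20, 3 were higher and 0 lower in all 3 pairs. The smallest unadjusted *p*-values were those of *Nop56*, a protein of the small nucleolar RNPs (0.13, unadjusted *p* = 0.129), and *Mybbp1a*, a nucleolar factor (0.10, unadjusted *p* = 0.209). Without replicate 3 they were at 0.046 and 0.029.

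*Ccnd2* lies on chromosome 6 from 127125162 to 127152193 on the minus strand and was the most variable of the members tested. It had 3128, 1921 and 2846 normalized counts in libraries labelled KO and 3019, 2100.5 and 2149 in libraries labelled WT. Both libraries of pair 1 were high and both of pair 2 low, whereas in pair 3 the KO library was high and the WT library low. The mean of the 2 littermates ranged over 0.61 on the log2 scale between pairs. The log2 ratios were 0.05, −0.13 and 0.40, and the counting intervals of pair 2 (−0.22 to −0.04) and pair 3 (0.32 to 0.49) lay on opposite sides of 0. The log2 fold change was 0.11 (standard error 0.10, 95% interval −0.14 to 0.36, adjusted *p* = 0.970), and it was −0.039 without replicate 3.

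*Ccnd3* lies on chromosome 17 from 47505051 to 47599691 on the plus strand. It had 438, 554 and 529 normalized counts in libraries labelled KO and 394, 534 and 415 in libraries labelled WT. The KO library was the higher one in each pair, with log2 ratios of 0.15, 0.05 and 0.35, but the groups overlapped because pair 2 was high in both. The log2 fold change was 0.18 (standard error 0.08, 95% interval −0.02 to 0.39, unadjusted *p* = 0.0680, adjusted *p* = 0.970), and it was 0.10 without replicate 3.

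*Ccnd2* was the main D-type cyclin of these cells, with 82.6% ± 4.48 (SD over 6 libraries) of the summed level per kilobase of the 3 genes, *Ccnd3* holding 17.4%. *Ccnd1*, the cyclin placed under an Ig enhancer in many myelomas, had 3 fragments over the KO libraries and 2 over the WT libraries. The share of *Ccnd2* followed the pair rather than the genotype, at 86.9% and 87.7% in the KO and WT libraries of pair 1, 76.3% and 78.6% in pair 2, and 83.4% and 82.8% in pair 3. The difference within pairs was −0.82 ± 1.43 percentage points (exact *p* = 0.5). The 2 libraries of the pair in which *Xist* was expressed, pair 2, thus had the lowest share of *Ccnd2* and the highest of *Ccnd3*, and the part of sex, litter or batch in this could not be told apart.

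**Figure D3:**
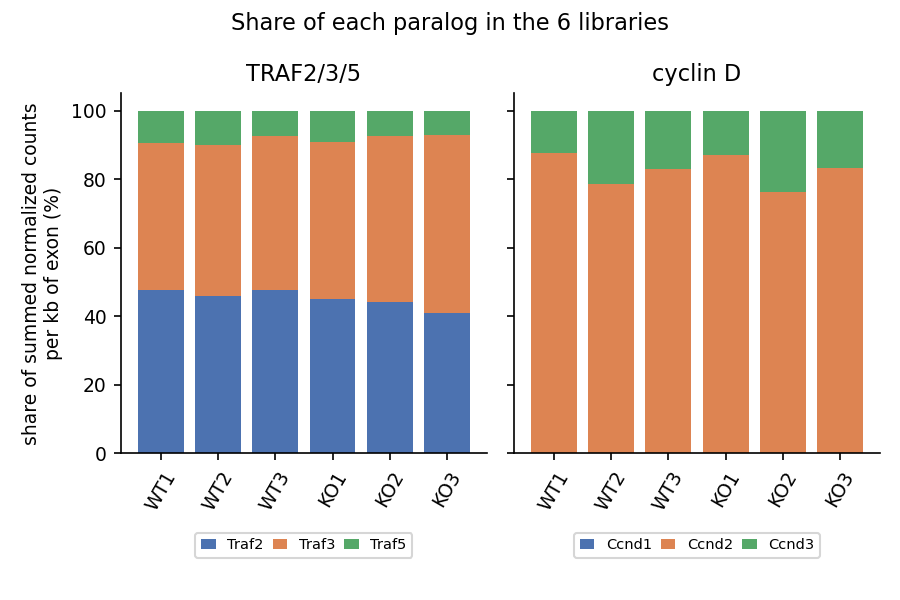
Share of the summed normalized counts per kilobase of exon (vertical axis, %) held by each gene of the TRAF2/3/5 and D-type cyclin groups in the 6 libraries. *Traf3* takes a larger share in each KO library than in any WT library, and *Ccnd2* takes between 76.3% and 87.7%.

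Of the genes around the D-type cyclins, 16 of 18 were tested, with a median log2 fold change of 0.01. There were 4 higher and 1 lower in all 3 pairs. *E2f1*, the factor that RB restrains, had 124, 131 and 126 normalized counts in libraries labelled KO and 88, 120.2 and 92 in libraries labelled WT. The KO libraries were close together and all above the WT ones, at a log2 fold change of 0.36 (standard error 0.13, unadjusted *p* = 0.0349, adjusted *p* = 0.970). The unadjusted *p* of *E2f1* was 0.0347 in edgeR and 0.192 in DESeq2, and 0.0347 to 0.156 in limma with a replicate left out. *Cdkn2b*, an inhibitor of CDK4 and CDK6, was at −0.39 (unadjusted *p* = 0.114), and at −0.24 without replicate 3.

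The 12 genes that E2F factors switch on for DNA replication had a median log2 fold change of 0.10, with 11 positive and 1 negative, where 6187 of all 12322 genes were positive. Each value was small, from −0.05 to 0.16, and 0 had an unadjusted *p*-value under 0.05. Of the 12, 4 were higher and 0 lower in all 3 pairs, beside 11.7% and 13.1% of all genes tested. *Mcm3* and *Mcm6*, subunits of the replicative helicase, were at 0.12 (unadjusted *p* = 0.101) and 0.10 (unadjusted *p* = 0.126).

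**Figure D4:**
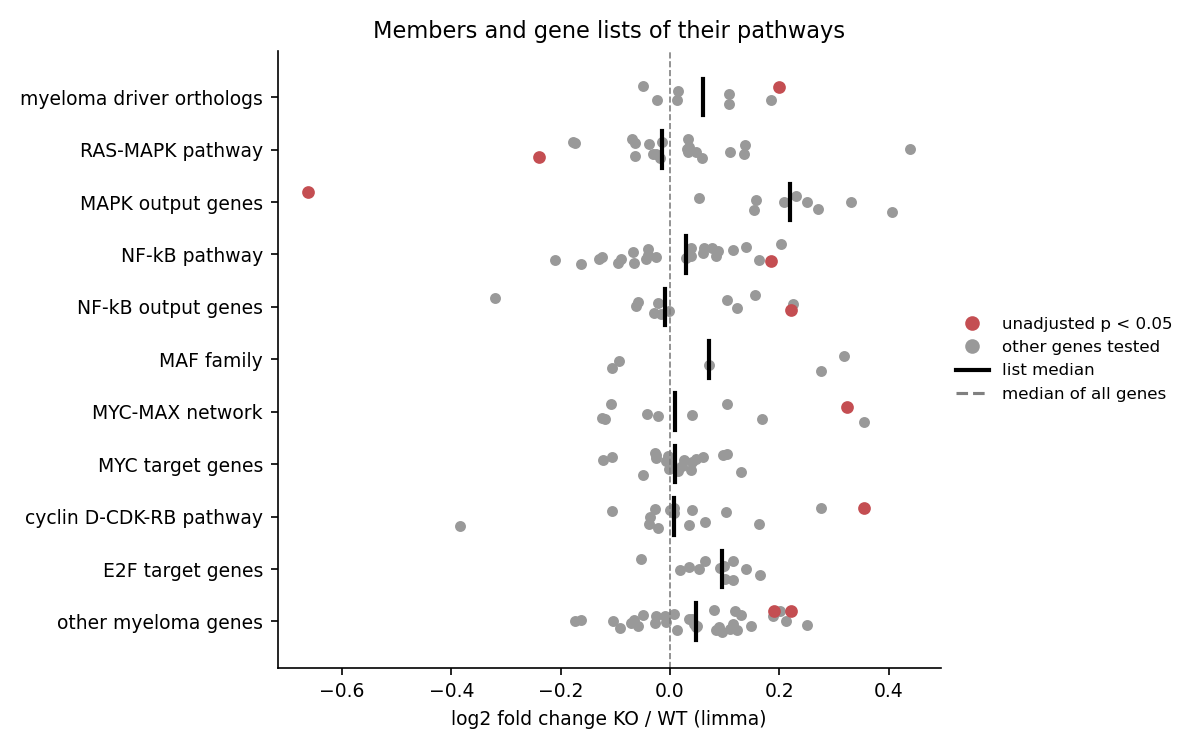
Log2 fold changes of KO against WT from limma (horizontal axis) for the genes tested in each list; every point is a gene, red points have an unadjusted *p*-value under 0.05, bars are list medians and the dashed line is the median of all 12322 genes. The list medians lie between −0.01 and 0.22, and red points are few in each list.

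Other genes altered in myeloma, 38 in number, were set beside the members, and 35 were tested. Their median log2 fold change was 0.05. In all 3 pairs, 7 were higher and 5 lower, beside 11.7% and 13.1% of all genes tested. At an unadjusted *p*-value under 0.05 in limma, where 1.67% of all genes were higher and 3.03% lower, 2 were higher and 0 lower. Besides *Nfkbia*, the second was *Hist1h1e*, a linker histone gene, with 2886, 3201 and 2871 normalized counts in libraries labelled KO and 2317, 2748 and 2805 in libraries labelled WT (log2 fold change 0.19, unadjusted *p* = 0.0363, and 0.13 without replicate 1). Histone mRNAs mostly lack a poly(A) tail, and the total RNA used here retains them. In none of the 11 gene lists did a gene pass the adjusted test.

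By level per kilobase of exon over the 6 libraries, *Ccnd2* stood highest at 269 ± 56.2 (mean ± SD) normalized counts per kilobase. *Nras* followed at 184 ± 10.2 and *Myc* at 130.1 ± 14.3. *Cyld* was at 115 ± 3.80 and *Max* at 105 ± 5.73. *Traf3* was at 69.6 ± 5.54, *Ccnd3* at 54.4 ± 7.92 and *Braf* at 51.7 ± 4.37, with *Maf* last at 0.16. The ranges of *Myc* and *Cyld*, of *Cyld* and *Max*, of *Traf3* and *Ccnd3* and of *Ccnd3* and *Braf* overlapped with this length. Within libraries, *Traf3* was above *Ccnd3* in 6 of 6, *Myc* above *Cyld* and *Cyld* above *Max* in 5 of 6 each, and *Ccnd3* above *Braf* in 4 of 6. *Ccnd2* and *Nras*, *Nras* and *Myc*, *Max* and *Traf3*, and *Braf* and *Maf* did not overlap. The order and the overlaps depend on the length used: with the longest transcript, *Ccnd2* (399) stayed first, followed by *Nras* (219), *Max* (194), *Cyld* (181), *Myc* (151), *Ccnd3* (124), *Braf* (73.7), *Traf3* (72.5) and *Maf*. The ranges of *Nras* and *Max* then overlapped, whereas *Ccnd3* lay above *Braf* and *Traf3* with no overlap.

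Members were then each matched with the gene whose log2 values over the 6 libraries correlated best with its own, among the 7905 genes that averaged 100 normalized counts or more. The matches given are *Mrps31* for *Nras* (Pearson *r* = 0.994), *Eme2* for *Braf* (0.993), *Prr13* for *Traf3* (0.992), *Mtmr4* for *Cyld* (0.992), *Prkcd* for *Myc* (0.995), *Ly6d* for *Max* (0.995) and *Ckap5* for *Ccnd3* (0.997). As the best of 7905 genes over only 6 libraries, which share the pair structure, these values are a description.

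Markers of cell types were summed in each library beside these results. The 10 B cell markers summed to 56146, 57468 and 64124 normalized counts in libraries labelled KO (pairs 1 to 3) and to 62866, 63106 and 60755 in libraries labelled WT. The list had a median log2 fold change of −0.0031, with 5 genes positive and 5 negative between −0.21 and 0.22. Below an unadjusted *p* of 0.05 were *Cd79a* and *Cd74*, at −0.21 and −0.18 (unadjusted *p* = 0.0387 and 0.0406 in limma). The 8 plasmablast markers summed to 21735, 13025 and 15863 in libraries labelled KO and to 17280.4, 13181 and 26130 in libraries labelled WT, so that in pair 1 the KO library and in pair 3 the WT library was the higher one. Of the 7 tested, 3 were positive and 4 negative, with a median log2 fold change of −0.0091. *Mzb1*, a chaperone of Ig assembly, was the 1 marker of this list below an unadjusted *p* of 0.05 (log2 fold change −0.33, unadjusted *p* = 0.0230). The log2 ratios of *Tent5c* (0.67, 0.37 and −0.44), of *Prdm1* (0.80, 0.01 and −0.52) and of *Myc* were likewise highest in pair 1 and lowest in pair 3. The other members tested did not follow this order: *Traf3*, *Cyld*, *Max*, *Ccnd2* and *Ccnd3* had their highest ratio in pair 3, and *Nras* and *Braf* in pair 2. The part of plasmablast content in the ratios of the members was not tested.

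Of the other cell types, 2 of 10 T cell markers passed the minimum of 10, *Thy1* with a mean of 354 and *Lck*, and the 10 summed to between 458 and 563 in the 6 libraries. The 10 myeloid markers summed to between 67.7 and 167, with *Cd68* the most abundant at 47.1 and *Ly6g*, *S100a8* and *S100a9* at 0 in all libraries. The 6 NK cell markers summed to 66.3 and 62.6 in the KO and WT libraries of pair 3 and to between 11.5 and 16.2 in the others, mainly from *Gzma*. Of 7 erythroid markers, 0 passed, and *Hbb-bs*, *Hba-a1* and *Hba-a2* were at 0. None of these 4 sums separated the KO from the WT libraries. Of the markers tested, the 3 myeloid ones had log2 fold changes from −0.54 to −0.38. The 2 T cell ones were at −0.20 and 0.51, and the 1 NK cell one was at 0.67. In limma, 0 of these had an unadjusted *p*-value under 0.05.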

How the data were processed

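RNA-seq of 3 KO and 3 WT libraries was analysed. According to the methods of the study and the submitters' processing notes, the authors demultiplexed reads with bcl2fastq (2.20), trimmed them with cutadapt, aligned them with STAR (2.6.1a) to GRCm38 and counted properly paired, reverse-stranded fragments on exons with featureCounts of Subread (1.6.3) and Gencode vM19. The deposited values are a signal on the count scale, fragment counts divided by DESeq2 size factors, for 54446 genes with no filter. This scaling hides any difference common to most mRNAs, and reads with several possible positions were not counted. All values (100%, tolerance 0.01) were whole multiples of the smallest value of their library, from which the fragments were recovered, 5393558 to 6793520 per library. The 37 mitochondrial genes are listed at 0 in every library. Symbols, positions and exon lengths came from Gencode vM21, which matched 54409 identifiers and not the other 37.

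Genes averaging 10 normalized counts or more were tested with limma (3.58.1, R 4.3.3; trend) on log2(normalized count + 1), with condition and batch, two-sided, with Benjamini-Hochberg adjustment over 12322 genes and a threshold of 0.05. For low genes, this scale makes differences look smaller. Littermates pair the libraries, as stated in the methods. The deviations from the group means also correlated within pairs 1, 2 and 3, at 0.328, 0.685 and 0.170. Libraries of different pairs gave up to 0.282 (KO of pair 3 with WT of pair 1), so the pairing rests on the litters and not on these values. *P*-values rest on the spread between these 3 pairs, but limma draws the variance of each gene toward that of all genes of similar level. The SD of the 3 pair ratios was 0.035 for *Braf* and 0.74 for *Dusp6*, beside limma standard errors of 0.06 and 0.26. edgeR (4.0.16) and DESeq2 (1.42.0) on the recovered fragments, other pseudocounts, filters and scalings, no block and leaving out each replicate were alternatives. Longest transcripts as lengths for the order of levels and scalings for the counts of members by direction were added after the data were seen. Ratios of pairs and shares of paralogs were tested with exact sign-flip permutation tests.

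The members, the gene lists and the tests were chosen with earlier results of these data known. Genes named are the members, *Tent5c*, the paralogs, in each list those with an unadjusted *p*-value under 0.05 (at least the 2 of smallest *p*, at most 4), the best correlated gene of each member and the cell type markers. The sex-linked genes, *Prdm1*, and the genes near *Tent5c* were named after their values were seen. Results that need certain items are not reported here.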

Additional observations from a re-analysis of the deposited data

How the results depend on the processing

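Log2 fold changes of the 8 members kept their direction and stayed above an adjusted *p* of 0.05 in all 88 fits with other pseudocounts, filters, scalings or tests. When each replicate was left out in turn, 20 of 24 kept their direction. The exceptions were *Nras* (0.046 without replicate 1, range −0.11 to 0.046), *Myc* (−0.035 and −0.014 without replicates 1 and 2, range −0.035 to 0.093) and *Ccnd2* (−0.039 without replicate 3, range −0.039 to 0.23). Not all other named genes were run under these alternatives: the cell type markers, *Prdm1* and the genes near *Tent5c* were not. Among those run, 262 of 262 values under other settings kept their direction, and 67 of 72 did so with a replicate left out. The 5 others were *Tent5c* (−0.033 without replicate 1, range −0.033 to 0.52), *Bach2* (−0.057 without replicate 3, range −0.057 to 0.69), *Itgb7* (0.31 without replicate 3, range −0.53 to 0.31), *Hras* (0.038 without replicate 2, range −0.067 to 0.038) and *Araf* (−0.028 without replicate 3, range −0.028 to 0.10). For *Braf*, the range was 0.19 to 0.22 and the adjusted *p* lay between 0.779 and 1.00 over all alternatives. With a replicate left out, the unadjusted *p* was 0.0396 to 0.0825 for *Braf* and 0.0825 to 0.117 for *Tab2*, and the log2 fold change of *Max* was 0.0070 to 0.024. DESeq2 called 22 genes lower and 1 higher. With a replicate left out, limma called 0 to 168 genes lower and 0 to 3 higher. The 168 were called without replicate 1, when 2 pairs remained, and the cause was not tested. Without the replicate block, limma and edgeR called 0 genes, and *Braf* had the same log2 fold change of 0.20. No call at the adjusted threshold depended on the block in these 2 tools (DESeq2 was run with it only), but at an unadjusted *p*-value under 0.05 limma then had 170 genes lower and 126 higher, and *Tab2* (0.0612), *Nfkbia* (0.0511) and *Hist1h1e* (0.0746) lay above 0.05. With the longest transcript as length, the shares were 75.7% for *Ccnd2* and 39.3% for *Traf3*, by construction of the level per length, and the order of levels changed for 5 members: *Ccnd3* ranked 6 instead of 7, *Max* 3 instead of 5, *Myc* 5 instead of 3, *Braf* 7 instead of 8 and *Traf3* 8 instead of 6. *Cyld* was no longer lower in all pairs with TMM scaling or quantile normalization (0 members), and with TMM scaling *Max* made 4 members higher in all pairs. Depth limits *Maf* and the other genes near 3 fragments.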

Other observations

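*Nras* is a neighbour of *Tent5c*, at a distance of 2.57 Mb on chromosome 3, and the genes around *Tent5c* were looked at after the values were seen. Within 5 Mb on either side of *Tent5c*, 104 genes were tested. Their median log2 fold change was 0.02. Over all genes tested, 1.67% were higher and 3.03% lower at an unadjusted *p*-value under 0.05 in limma. Of these 104, 4 (3.85%) were higher and 1 (0.962%) lower in the libraries labelled KO. The higher ones were *Capza1* (0.45), *Gm43462* (0.46), *Tspan2* (0.40) and *Ptpn22* (0.27), and the lower one was *Ctss* (−0.22). None passed the adjusted test.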
